A study of Rattus norvegicus with 2 samples.

Results

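The circular RNAs (circRNAs) described here come from genes that attach ubiquitin or remove it. They were chosen by name alone: every row of the deposited table that carries a single gene symbol beginning with USP and a digit, UBE2, OTUD, UCHL, or UBA and a digit. This rule took 248 of the 17260 circRNAs considered, from 61 of the 4997 host genes that stand alone on a row. By class they were 166 circRNAs of 36 USP genes, 8 of 3 OTUD genes, 1 of 1 UCHL gene, 48 of 17 UBE2 genes and 25 of 4 UBA genes. The name is not always the function. USP6NL is a Rab GTPase-activating protein, and UBE2Q2P1 is the name of a pseudogene.

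Ubiquitin is a small protein that cells link to other proteins as a tag. An activating enzyme (E1) charges it, a conjugating enzyme (E2) carries it, and a ligase passes it to the target, where chains of ubiquitin can send the protein to the proteasome or change its partners. Deubiquitinases of the USP, OTUD and UCHL families cut the tag off again, and the related modifiers SUMO and NEDD8 have E1 and E2 enzymes of their own. A circRNA arises when a downstream splice site is joined back to an upstream one, so several circRNAs of a gene may share an end. A read across that junction counts the circle and says nothing about the linear mRNA, the protein or its activity.

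Walker256 is a line of rat breast carcinoma cells. In the bone cancer pain group, living cells of this line were placed in the marrow cavity of the tibia; in the control group the cells had been boiled for 20 minutes beforehand. The cells had first been grown as ascites in SD rats, and both groups of 3 animals were killed 21 days after the surgery. The labels give neither the sex nor the age of the animals. Each group has 1 library, here the control library and the pain library, made from RNA treated with RNase R to remove linear molecules, and the labels do not say whether animals were pooled. The labels name the material both as cancer cells and as spinal cord cells. Without replicates no condition was tested: a ratio below compares 2 libraries, as the share of reads in the pain library over the share in the control library, with an exact 95% interval for counting error.

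The control library held 159941 junction reads and 151685 were in the pain library. Circles of marker genes of spinal cord cells, which the labels name beside cancer cells, were almost wholly absent. None of 18 neuronal markers was listed (RBFOX3, SNAP25 and NEFL among them). Of 7 astrocyte markers 1 was listed (GJA1, while GFAP and AQP4 were not), and of 12 oligodendrocyte markers 2 (MBP and MYRF). These lists had at most 5 reads each in a library. A gene can be expressed without a listed circle, so this does not identify the material. None of 8 microglia and macrophage markers and none of 10 blood markers was listed. Of 7 markers of carcinoma and dividing cells, the division genes TOP2A (60 and 41 reads) and MKI67 (0 and 2) were listed and the keratins KRT8, KRT18 and KRT19 were not. Symbols, circBase numbers (circBase is a catalogue of circRNAs) and positions in the table are of human style, whereas the submitters' processing notes name rn6, a build of the rat genome. Positions are given below as the table has them, and their build is not named in it. They include chromosomes 21 and 22, which the rat does not have, so they are not rn6 positions.

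The ubiquitin genes took 2307 control reads, 1.44% of the library (exact binomial interval 1.38 to 1.502), and 2019 pain reads, 1.33% (1.27 to 1.39). The ratio was 0.923 (0.869 to 0.980), so as a group they were slightly lower in the pain library. Without USP25, the host with the most reads, the ratio was 0.956 (0.895 to 1.02).

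Among the class sums, that of the E2 enzymes had an interval wholly below 1, with 742 control and 609 pain reads (0.865, 0.776 to 0.965), but without UBE2G1 the ratio was 0.932 (0.819 to 1.06). USP genes had 1291 and 1136 reads (0.928, 0.856 to 1.01), and without USP25 the ratio was 1.00 (0.91 to 1.10). The UBA genes had 219 and 217 (1.04, 0.862 to 1.27), with 89.7% of these reads on UBA2, and the OTUD genes 55 and 53 (1.02, 0.683 to 1.51). The side of 1 was not stable for these: scaled by the median of ratios the UBA sum was 0.991 and the OTUD sum 0.964, and without OTUD7B the OTUD sum was 0.742. The UCHL class was a single circRNA with 4 pain reads, not listed in the control.

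Calls by size required 10 or more reads in the sum of the libraries, for a host gene or a circRNA, and a ratio of at least 2 or at most 0.5 after adding 0.5 reads to each library. Of the 61 host genes 42 had 10 or more reads. By this size 4 of the 42 were higher (USP45, USP36, USP49 and USP11), 5 lower (USP4, USP37, OTUD3, UBE2Z and UBE2J1) and 33 between. Across all 3041 host genes with as many reads, 13.3% were higher and 14.2% lower by the same sizes, against 9.52% (2.66 to 22.6) and 11.9% (3.98 to 25.6) of the ubiquitin genes. The median log2 ratio was -0.11 for these 42 genes and -0.03 for all host genes. Among the 33 genes with 20 or more reads, the interval lay above 1 for 2 (USP45 and USP36) and below 1 for 4 (USP4, USP33, UBE2G1 and USP25). The share of all host genes with such intervals was not computed, so these counts do not set the ubiquitin genes apart.

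**Figure D1:**
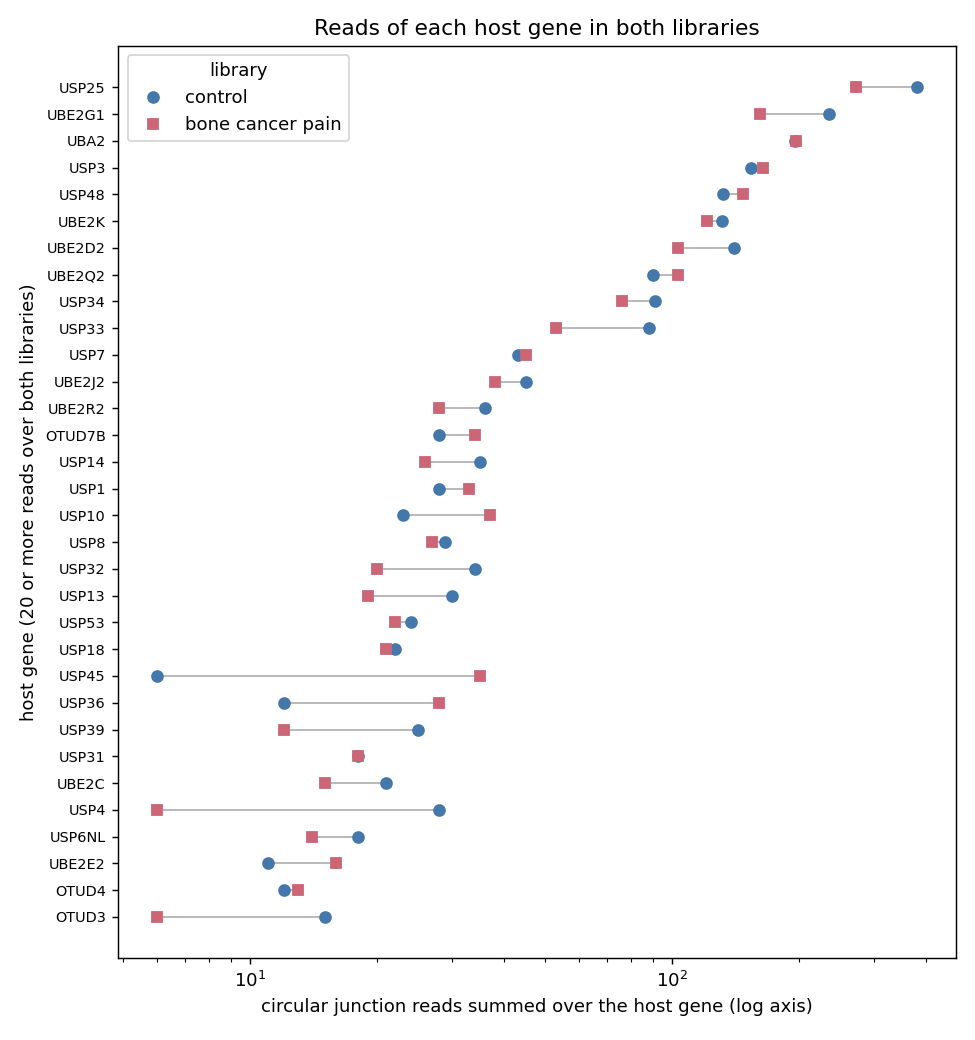
Junction reads summed over host genes with 20 or more reads that are named here (log axis) in the control library (circles) and the pain library (squares), 1 library each, with a grey line joining the pair. USP25 leads with 381 and 273 reads, and the widest gaps are those of USP45 (6 and 35) and USP4 (28 and 6).

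USP25 had the most reads of all the genes, 381 in the control and 273 in the pain library (0.756, 0.644 to 0.885). It encodes a deubiquitinase closely related to USP28. Most of its reads, 310 and 208, fell on hsa_circ_0001178 (chromosome 21, 17135210 to 17138460; 0.707, 0.591 to 0.846). A longer circle from the same start, hsa_circ_0061278 (17135210 to 17150346), had 24 and 5 reads (0.220, 0.0655 to 0.587), the lowest ratio among the 50 circRNAs with 20 or more reads. The next circle of the gene, hsa_circ_0005238 (17205667 to 17214859), had 26 and 36 reads and an interval that includes 1 (1.46, 0.857 to 2.52).

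Among the other abundant deubiquitinases, most intervals included 1. USP3, which acts on ubiquitinated histones, had 154 and 164 reads (1.12, 0.896 to 1.41). USP48, which also acts on ubiquitinated histone, had 132 and 147 (1.17, 0.922 to 1.497). USP34, a very large protein with a role in Wnt signalling, had 91 and 76 (0.881, 0.641 to 1.21), and USP7, which stabilises MDM2 and p53, had 43 and 45 (1.10, 0.710 to 1.72). USP33 was the exception, with 88 and 53 reads (0.635, 0.443 to 0.903). The 3 circles of USP33 that begin at 78177432 on chromosome 1 had 69 control and 35 pain reads (0.535, 0.346 to 0.815); this start was singled out after its values were seen.

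Among genes with 20 or more reads USP45 was the furthest above 1. It encodes a deubiquitinase of the XPF-ERCC1 repair nuclease and had 6 control and 35 pain reads (6.15, 2.56 to 17.9). Of its 5 circRNAs only hsa_circ_0004999 (chromosome 6, 99912480 to 99916494) was listed in both libraries, with 6 and 12 reads (2.11, 0.733 to 6.85). The remaining 23 pain reads were spread over 4 circles that the control library does not list, led by hsa_circ_0077430 with 10 (99951641 to 99958106). The lowest value listed in either library is 2 reads, so a circle that is not listed may have had 1.

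USP36, a nucleolar deubiquitinase, followed with 12 and 28 reads over 7 circles of few reads each (2.46, 1.21 to 5.31). Of these hsa_circ_0045920 (chromosome 17, 76799467 to 76800060) had 2 and 9. The 3 USP36 circles listed in both libraries gave 1.64 (0.661 to 4.30). USP10, whose partners include the stress granule protein G3BP1, had 23 and 37 reads (1.70, 0.982 to 2.99). Within USP10 1 circle, hsa_circ_0003026 (chromosome 16, 84773915 to 84779279), had 13 and 31 (2.51, 1.28 to 5.24), while the rest had 10 and 6. USP1, which acts on FANCD2 and PCNA, had 28 and 33 (1.24, 0.728 to 2.13). Under 20 reads, USP49 had 4 and 10 and USP11 none listed and 10, all of the latter on 2 circles that share a start on the X chromosome (47102795).

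Among genes with 20 or more reads USP4 was the furthest below 1, and its value depends on which rows are counted. On rows with a single name it had 28 and 6 reads (0.226, 0.0765 to 0.556), of which 16 and 6 were on hsa_circ_0004609 (chromosome 3, 49362135 to 49363278). Another USP4 circle, hsa_circ_0001301 (49372453 to 49373029), is named together with small RNAs in the table and so lies outside the rule. It held more reads than all the others of the gene, 37 and 43 (1.23, 0.771 to 1.96). With rows of this kind added, USP4 had 65 and 52 reads and a ratio of 0.844 (0.574 to 1.23), no longer lower by size.

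USP39, a splicing protein that has the fold of a deubiquitinase without its catalytic residues, had 25 and 12 reads (0.506, 0.232 to 1.05). Of these 9 control reads were on a circle (chromosome 2, 85872071 to 85875976) absent from the other library, and the circle found in both had 16 and 12 (0.791, 0.341 to 1.78). USP32 had 34 and 20 (0.620, 0.338 to 1.11). USP13, a relative of USP5, had 30 and 19 (0.668, 0.355 to 1.23), with hsa_circ_0007541 at 10 and not listed. The circles of USP13 that both libraries listed were level (0.996, 0.482 to 2.05). USP37, which acts on cyclin A, had 12 and 2 reads on 6 circles (0.176, 0.0191 to 0.789) and is among the 5 genes called lower. None of its circles was listed in both libraries, so this ratio rests on circles that each may have had 1 unlisted read.

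Several other USP genes had nearly equal reads. They were USP53 (24 and 22, on 1 circle), the ISG15-removing protease USP18 (22 and 21), the endosomal enzyme USP8 (29 and 27) and USP31 (18 and 18). The proteasome-bound USP14 had 35 and 26 (0.783, 0.453 to 1.34). USP6NL, the Rab regulator, had 18 and 14, and 54 and 49 with its rows that also name small RNAs.

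The intervals of all 3 OTUD genes included 1. OTUD7B, also called Cezanne, had 28 and 34 reads (1.28, 0.754 to 2.19). Its circle from 149931603 to 149936274 on chromosome 1 had 16 and 24 and hsa_circ_0003619 had 12 and 7; the latter is its only circle with a circBase number. OTUD4 had 12 and 13 (1.14, 0.481 to 2.74). OTUD3 had 15 and 6 (0.422, 0.134 to 1.15) and its leading control circle (chromosome 1, 20216878 to 20220973) 11 and 2 (0.192, 0.0206 to 0.878). UCHL5, a deubiquitinase of the proteasome, had its 4 pain reads on hsa_circ_0015733. UCHL3 shares its row with another gene name and is not counted among the members: hsa_circ_0000494 had 30 and 35 reads (1.23, 0.734 to 2.07).

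**Figure D2:**
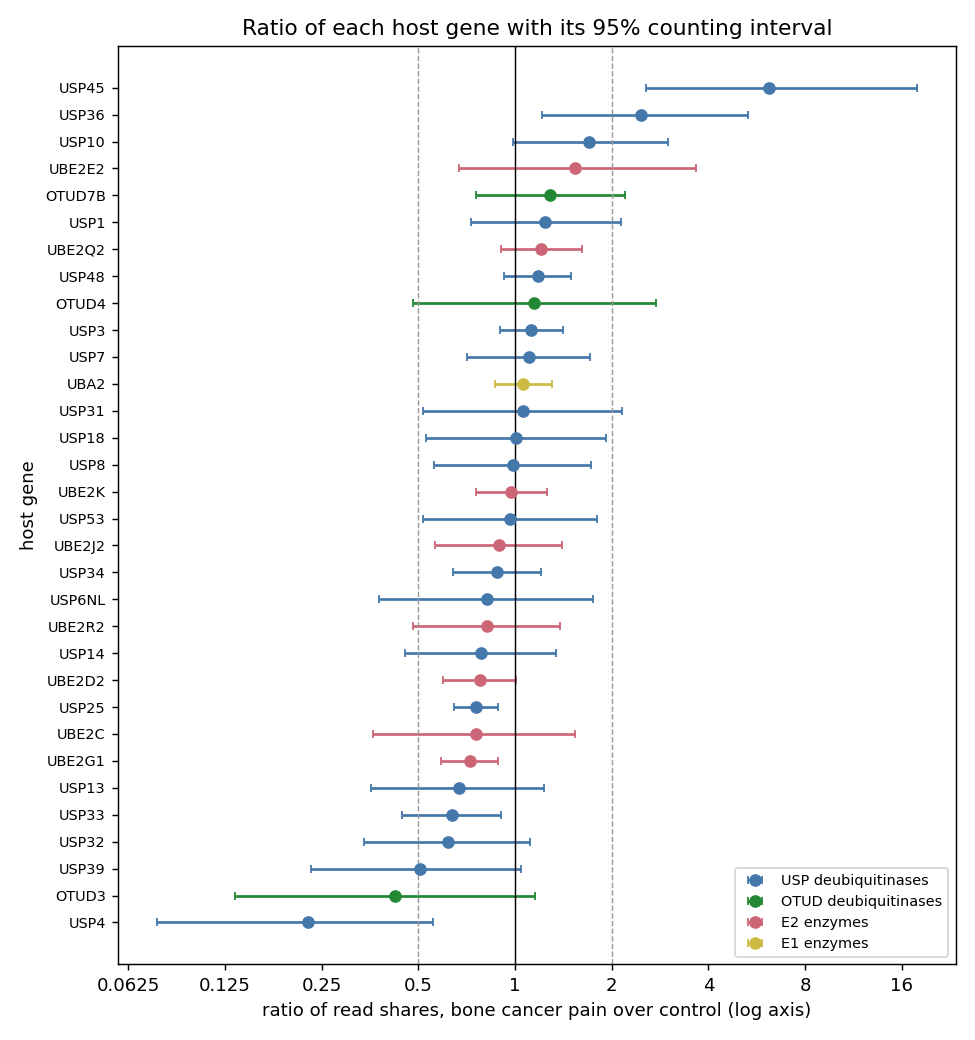
Ratio of read shares, pain over control (log axis), for host genes with 20 or more reads that are named here; bars are exact 95% intervals for counting error, colours are the classes, and dashed lines mark 0.5 and 2. Only USP45 and USP36 have intervals wholly above 1, and only USP4, USP33, UBE2G1 and USP25 wholly below.

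Among E2 enzymes the reads lay on a few genes. UBE2G1, which works with cullin ligases, had 235 and 161 reads (0.722, 0.587 to 0.887). Both of its main circles were lower: hsa_circ_0003239 (chromosome 17, 4186093 to 4200109) had 158 and 104 (0.694, 0.537 to 0.895), and hsa_circ_0004805 (4186093 to 4210418) 71 and 45 (0.668, 0.449 to 0.984). They share a start, and the 3 circles from it took 231 of the gene's 235 control reads and 153 of its 161 pain reads.

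UBE2D2, an E2 that works with many ligases, had 140 and 103 reads (0.776, 0.596 to 1.01). All 5 of its circles were listed in both libraries. A span is given here as the distance from start to end, which need not be the length of the circle. Of these circles hsa_circ_0005728 (chromosome 5, 138979957 to 138994551) had 67 and 37 (0.582, 0.379 to 0.883). With a span of 380 bp, hsa_circ_0006716 (138994171 to 138994551) had 36 and 30 (0.879, 0.523 to 1.47). The circle hsa_circ_0004503 had 21 and 21 (1.05, 0.548 to 2.03). These intervals overlap.

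UBE2K, which can build ubiquitin chains without a ligase, had 131 and 121 reads (0.974, 0.754 to 1.26) while its circles lay on both sides of 1. Of its 6 circles 4 begin at 39739040 on chromosome 4 and differ in where they end. The shortest of them, to 39747430, had 4 and 17 reads (4.48, 1.46 to 18.3), the highest ratio among the circRNAs with 20 or more reads. The next, hsa_circ_0009154 to 39757359, had 77 and 54 (0.739, 0.512 to 1.06), and hsa_circ_0002590 to 39776553 had 34 and 47 (1.46, 0.918 to 2.34). The longest, hsa_circ_0069492 to 39779430, had 10 control reads and was not listed in the pain library.

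UBE2Q2 had 90 and 103 reads on 12 circles (1.21, 0.901 to 1.62), led by a circle without a circBase number (chromosome 15, 76152219 to 76165909; 46 and 50). UBE2J2, an E2 of the endoplasmic reticulum membrane, had 45 and 38 (0.890, 0.563 to 1.40), of which 38 and 35 were on hsa_circ_0008063, with a span of 318 bp. UBE2R2, which works with cullin ligases, had 36 and 28 (0.820, 0.482 to 1.38), and 38 and 39 with its row that also names small RNAs (1.08, 0.674 to 1.74). UBE2C, the E2 of the anaphase-promoting complex, had 21 and 15 on a circle with a span of 372 bp (0.753, 0.361 to 1.53). UBE2E2 had 11 and 16 (1.53, 0.668 to 3.65). The lower calls UBE2Z (11 and 3; 0.288, 0.0515 to 1.09) and UBE2J1 (9 and 3; 0.351, 0.0612 to 1.41) had intervals that include 1.

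Related E2 genes are given side by side for the reads they had over both libraries, per junction and not per length. UBE2G1 had 396 reads over both libraries and UBE2G2 had 2; UBE2D2 had 243 and UBE2D3 had 2; UBE2J2 had 83 and UBE2J1 had 12. Among the deubiquitinases USP25 had 654 and USP28 had 2. These pairs were picked after their values were seen.

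Among the activating enzymes UBA2, a subunit of the E1 for SUMO, had the most reads. It had 195 control and 196 pain reads (1.06, 0.865 to 1.30) on 21 circles, more circles than any other of the 61 genes. UBA3, of the E1 for NEDD8, had 4 control reads and was not listed in the pain library. UBA1, the main E1 for ubiquitin, had no circRNA listed, nor had UBA6 or UBA7.

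The circles of UBA2 also lay on both sides of 1. In the control the leading circle was hsa_circ_0006987 (chromosome 19, 34921481 to 34929671) with 51 reads and 34 in the other library (0.703, 0.442 to 1.11). In the pain library the leader was hsa_circ_0005325, from the same start to 34925873, with 26 and 44 (1.78, 1.07 to 3.02). Further along the gene, 2 circles from 34942886, hsa_circ_0008813 and hsa_circ_0006186, had 10 and 20 and 9 and 21 reads. Together they held 9.74% of the gene's control reads and 20.9% of its pain reads (2.28, 1.29 to 4.15), a start chosen after its values were seen. A circle that ends with hsa_circ_0006186 but starts at 34954931, hsa_circ_0006992, had 14 and 6 (0.452, 0.142 to 1.25).

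**Figure D3:**
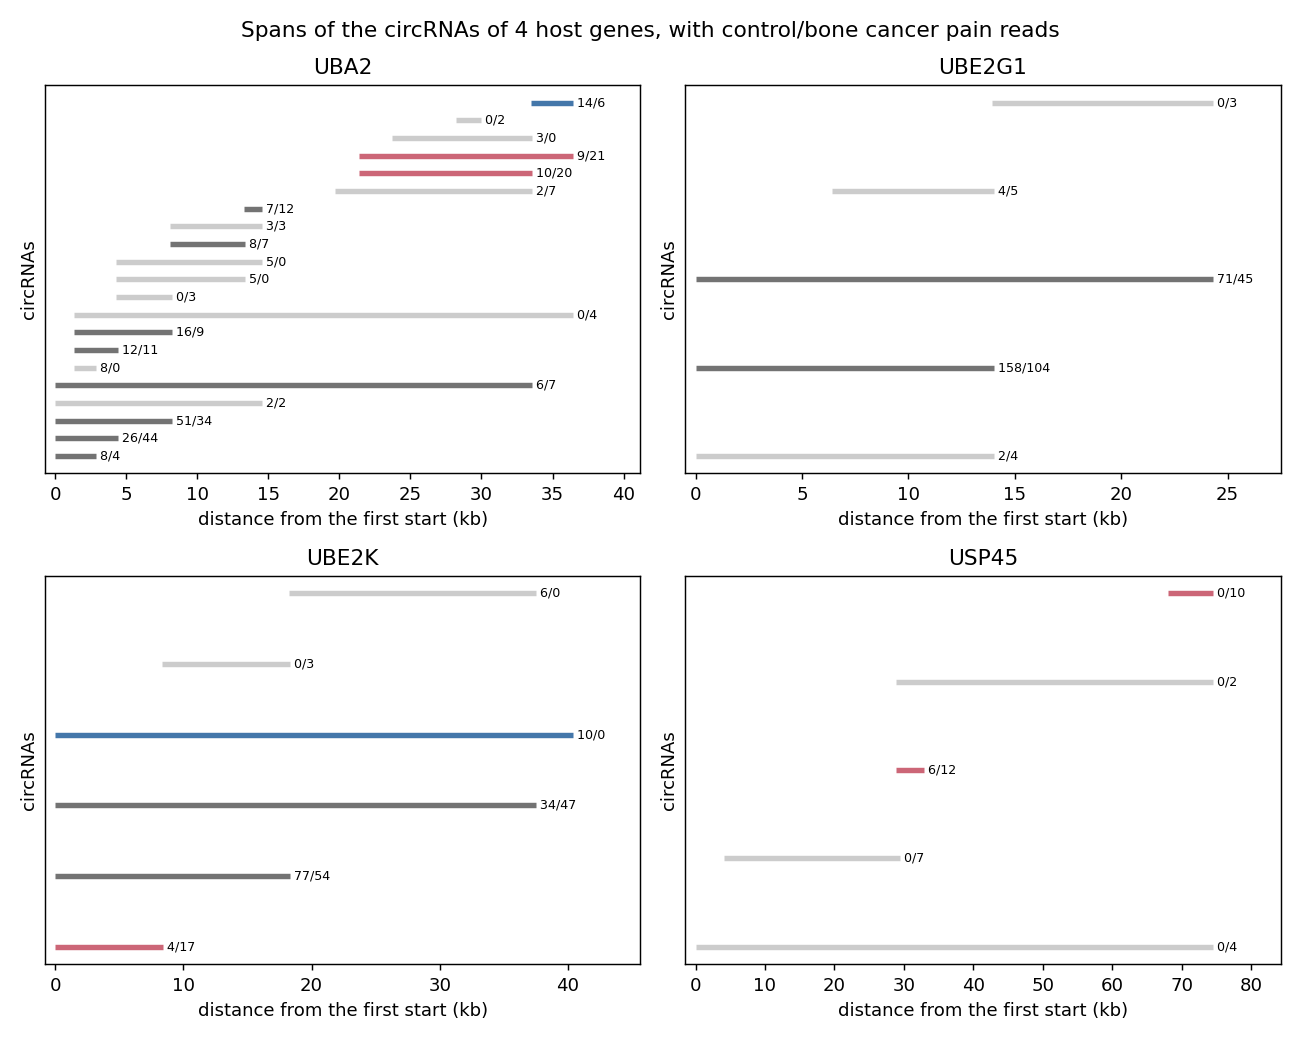
Spans of all circRNAs of UBA2, UBE2G1, UBE2K and USP45 as the distance from the first start of the gene in kb, each with its control and pain reads. Red marks circles called higher in the pain library by the 2-fold size rule, blue those called lower, dark grey those between and light grey those under 10 reads; in UBE2K 4 circles leave from 1 start and end at different places.

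Over single circRNAs, 91 of the 248 had 10 or more reads, of which 11 were called higher, 11 lower and 69 between. Both directions made 12.1% (6.19 to 20.6), where 17.3% of all 5415 circRNAs with as many reads were higher and 17% lower. Intervals without 1 were found for 5 of those called higher and 6 of those called lower. How often such intervals occurred over all circRNAs was not computed. Those listed in 1 library alone never had many reads: the most was 12 (hsa_circ_0006729 of USP34, with a span of 258 bp, control only) and 11 (hsa_circ_0035655 of USP3, bone cancer pain only). No fold is given for these, since a circle that is not listed may still have had 1 read.

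**Figure D4:**
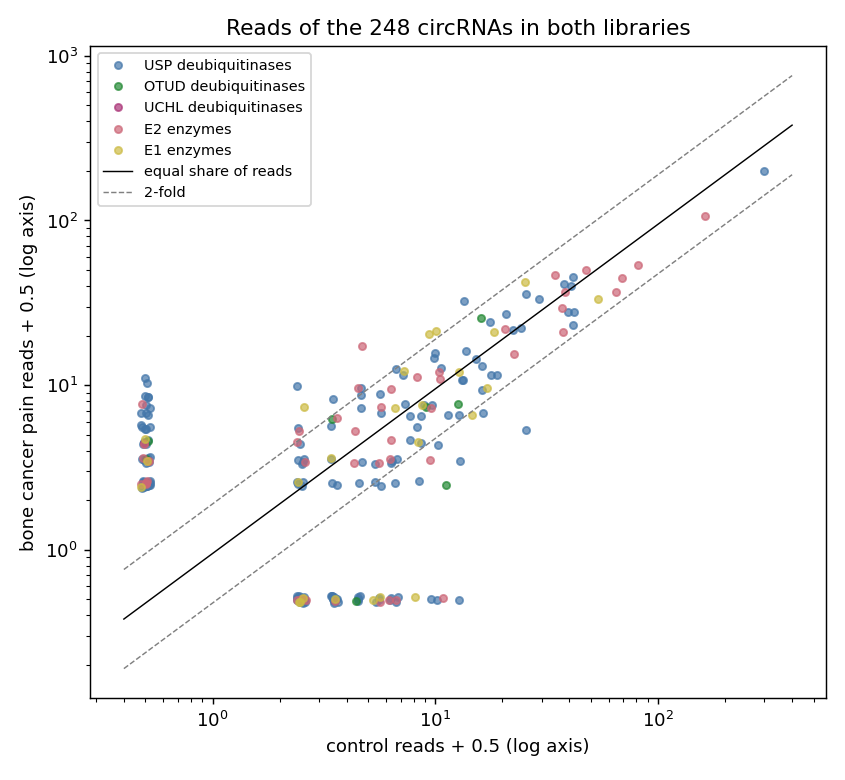
Reads plus 0.5 of the 248 circRNAs in the control library and the pain library (log axes, points shifted slightly at random so that they can be seen apart), coloured by class; the line is an equal share of reads and dashed lines are 2-fold. Circles listed in 1 library only lie along the left and lower edges, at 12 reads or fewer.

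Which circle led a gene was mostly the same in both libraries. Of the 33 genes with 20 or more reads, 27 had the same leading circRNA and 6 did not (UBA2, USP14, USP18, USP32, USP36 and OTUD3). Ties went to the circle listed first, and USP32 is among the 6 only through a tie. Its control leader hsa_circ_0000793 (12 and 6 reads) was level with hsa_circ_0044949 (5 and 6) in the pain library. USP3, among the 27, had a tie for the lead in the control. In the 5 of the 6 other than UBA2 the leading circles had few reads. In USP14 hsa_circ_0007706 had 17 and 11 and hsa_circ_0046655 10 and 12. In USP18 the circles from 18642939 on chromosome 22 had 9 and 7 (to 18650101) and 7 and 11 (to 18650803). Over the same 33 genes the leading circle held a median of 53.1% of the gene's reads, against 63.7% for the 2203 other host genes with as many reads. This was not adjusted for the number of circles per gene.

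Genes with several well-read circles ranged from 1 dominant circle to none, with others in between. The leader held 81.4% of USP25 control reads (77.1 to 85.1) and 76.2% of its pain reads (70.7 to 81.1). At the other end, hsa_circ_0008153 of USP3 (chromosome 15, 63845914 to 63855207) held 25.3% and 24.4%. It led in the pain library and was tied with hsa_circ_0002138 in the control, at 39 reads each. In USP3, 3 circles ending at 63855207 took 106 and 99 reads together (0.985, 0.741 to 1.31). In USP48 4 circles held most of the reads, with 42 and 47, 37 and 39, 21 and 27, and 17 and 23; the first was hsa_circ_0000028 (chromosome 1, 22041882 to 22048257), at 31.8% and 32.0% of the gene. All 4 were slightly more numerous in the pain library and all 4 intervals include 1. In UBE2K the leader held 58.8% of control reads (49.8 to 67.3) and 44.6% of pain reads (35.6 to 53.9), and in UBE2D2 47.9% (39.3 to 56.5) and 35.9% (26.7 to 46.0). The intervals overlap in both genes. Such overlap alone does not show that the shares were level, and their difference was not tested.

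**Figure D5:**
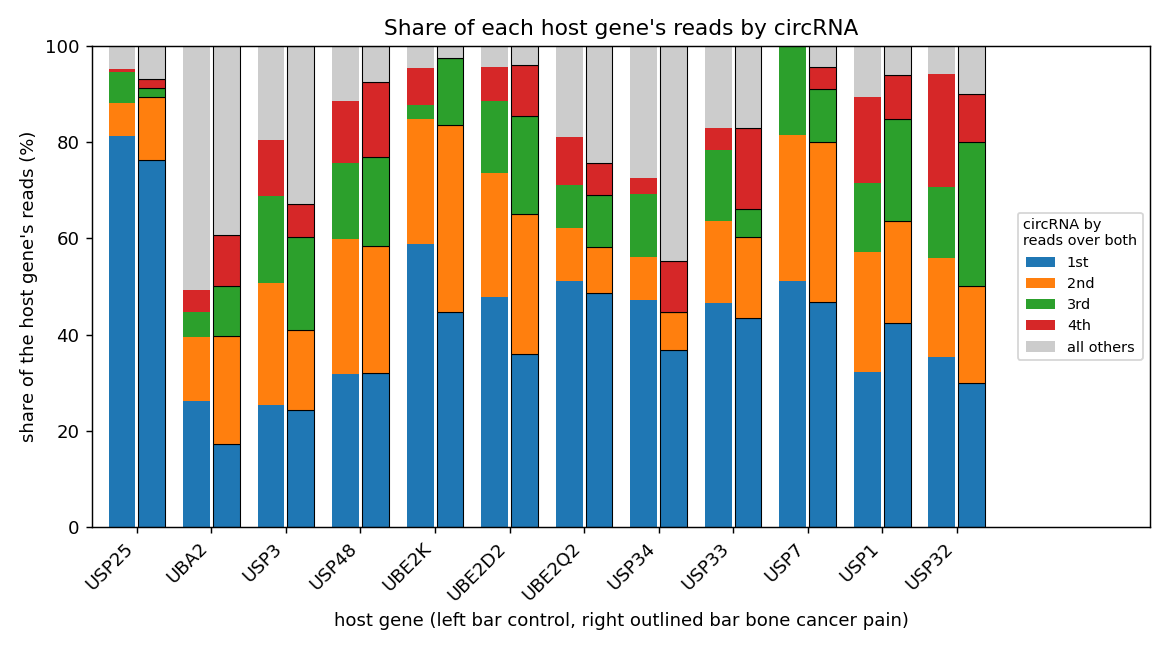
Share of each gene's junction reads by circRNA, in the control (left bar) and the pain library (right, outlined bar), for the 12 genes with at least 3 circRNAs of 10 or more reads; colours rank the circRNAs by reads over both libraries and grey holds the rest. The first circle holds 81.4% and 76.2% of USP25 but 26.2% and 17.3% of UBA2.

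Circles of these genes were described alongside the 14877 other circRNAs on rows with a single gene name, without a test. They were more often several to a gene, with a mean of 4.07 per gene against 3.01, although the median was 2 in both; 21 of the 61 genes (34.4%) had 5 or more circles, against 19.4% of the other genes. An end was shared with another circle of the same gene by 71.0%, against 61.4%. A gene with more circles has more chances of a shared end. None of these values was adjusted for reads, of which a circle had a median of 6 against 5. Per gene the reads differed more: 33 of the 61 genes had 20 or more, against 2203 of the 4936 other genes, a smaller share. The median span was 6664 bp (quartiles 2487 and 13734), against 5774 bp (quartiles 1796 and 15024). A circBase number was present for 59.3% and 58.6%. Of circles with 10 or more reads, 94.5% of both sets were listed in both libraries.

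Not every gene of these families had a circle. Of 121 rat protein-coding symbols that fit the same name rule in RefSeq (assembly GRCr8), 60 were among the host genes. They were 36 of 56 USP symbols (64.3%), 3 of 8 OTUD, 1 of 3 UCHL, 16 of 45 UBE2 and 4 of 9 UBA symbols. These counts include copies that exist only in the rat. Without a listed circRNA were, among others, USP2, USP16, USP19, USP20, USP24, OTUD5, UCHL1 (an abundant neuronal deubiquitinase), UBE2N and UBE2O.

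Other parts of the ubiquitin system were covered by lists of genes, nearly all outside the name rule. Of 33 other deubiquitinases 12 had a circRNA and 7 had 10 or more reads. These 7 divided into 3 higher, 1 lower and 3 between, where 13.3% of all host genes with as many reads were higher and 14.2% lower; their median log2 ratio was 0.88, against -0.03 for all. ZRANB1, an OTU deubiquitinase also called TRABID, had by far the most reads, 98 and 256 (2.75, 2.17 to 3.51). USPL1, a SUMO protease despite its name, had 5 and 12 (2.53, 0.830 to 9.17), and ATXN3, the ataxin deubiquitinase, none listed and 10. PSMD14, the deubiquitinase of the proteasome lid, had 28 and 8 (0.301, 0.119 to 0.678). With 7 genes the median is the value of 1 of them.

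Of 22 partners of deubiquitinases, 10 had 10 or more reads; 2 of them were called higher, none lower and 8 between (median 0.20). Among all host genes 13.3% were higher and 14.2% lower, so 2 of 10 is near the background. G3BP1, the partner of USP10, had 62 and 63 reads (1.07, 0.742 to 1.55), and G3BP2 had 3 and 14 (4.92, 1.37 to 26.7). WDR20, an activator of USP12 and USP46, had 39 and 67 (1.81, 1.20 to 2.76); these 2 enzymes had 2 and 3 control reads and were not listed in the pain library. GMPS, a partner of USP7, had 24 and 46 (2.02, 1.21 to 3.46).

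The lists for SUMO, NEDD8, other E1 and E2 enzymes and the proteasome lay mostly between. Of 19 SUMO and NEDD8 proteases and helpers 13 had a circRNA and 9 had 10 or more reads; of these 3 were higher (SENP2, SENP5 and PIAS2, each with an interval that includes 1), none lower and 6 between, with a median of 0.32. SAE1, which pairs with UBA2 in the E1 for SUMO, had 10 and 8 reads (0.844, 0.289 to 2.37) and NAE1, which pairs with UBA3, 7 and 6. All 5 of the other E1 and E2 enzymes with 10 or more reads were between (median -0.13), among them ATG7, the E1 of autophagy, with 85 and 125 (1.55, 1.17 to 2.07), and BIRC6, a giant E2 that is also a ligase, with 101 and 121 (1.26, 0.962 to 1.66). Of 47 proteasome and shuttle genes 25 had a circRNA and 15 had 10 or more reads; of these 1 was higher (PSME4), none lower and 14 between (median 0.10). The same 13.3% and 14.2% of all host genes stand beside both lists.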

How the data were processed

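The deposited table gives 2 columns of values, 1 per library, for circRNAs with a gene name and, for some, a circBase number. The values are headed TPM per the file headers and were treated as RPM (scaled reads), since 100% of the deposited values above the placeholder of 0.001 were whole multiples of 1 step per library, to within 0.001 reads. Dividing by the step gave reads; the lowest listed was 2, and the placeholder was taken as 0. Per the submitters' processing notes CASAVA 1.8, BWA and rn6 were used; the circRNA caller is not given in the sources used here.

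Ratios used library totals as depth, with exact conditional binomial (Clopper-Pearson) 95% intervals, which cover counting error only. No test between conditions was possible with 1 library per group. Host sums used rows with 1 gene name; 15 rows that name a gene of these families among several names were left out unless stated, as was 1 row on chromosome Y. Medians are over log2 ratios with 0.5 reads added. Alternatives covered the scaling (median of ratios, or TMM with a 30% trim by ratio and a 5% trim by abundance), the read minimum (5 or 20), the added reads (2), the ratio (1.5), the interval, and which rows count. Adding rows with small RNA names was chosen after seeing the data.

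The members, gene lists and settings were chosen with earlier results of these data known. The rule for naming took the 8 highest and the 8 lowest host genes of 20 or more reads, the 3 most read per class, all OTUD, UCHL and UBA genes, the 10 most read circRNAs, the 5 highest and the 5 lowest circRNAs of 20 or more reads, circRNAs of 15 or more reads in 1 library only (none), genes with 3 or more circRNAs of 10 or more reads, and genes of 20 or more reads whose leader differed. Other genes were named after their values were seen. Some genes that these rules take are counted in the sums but not reported here by name or drawn by name. The calculations were tested on simulated data. Tools were Python 3.11.15 with numpy 2.4.6, scipy 1.17.1, pandas 2.3.3 and, for figures, matplotlib 3.10.9.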

Additional observations from a re-analysis of the deposited data

Results flagged for a closer look

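Rows with several names enter the sums above only where that is stated. The 15 that name a gene of these families were searched for intervals wholly above 1, and not for intervals below 1. This search picked a junction of UBE2R2, and its interval was not adjusted for the choice among 15 rows. The junction lies on chromosome 9 (33886879 to 33887452), is named together with small RNAs, and had 2 control and 11 pain reads (5.80, interval 1.27 to 53.8). It shares its start with both UBE2R2 circles that carry the gene's name alone.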

How the results depend on the processing

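No paired analysis was possible because each group has 1 library. Median of ratios scaling, which shifts log2 ratios by -0.08, gave 4 higher and 6 lower genes and a ratio of 0.875 for all members. The OTUD sum lay below 1 under that scaling (0.964), with circBase numbers only (0.721), with circles listed in both libraries only (0.951) and without OTUD7B (0.742), and the UBA sum under that scaling (0.991). The UBA sum without UBA2 also lay below 1; it rests mostly on genes not reported here by name. The number of genes higher, 4, became 2 with a minimum of 20 reads. The number lower, 5, became 2 with a minimum of 20 reads, with intervals that exclude 1 and with circBase numbers only, and 9 at a ratio of 1.5. For single circRNAs, the 11 higher became 28 with a minimum of 5 reads, 4 with 20, 7 with 2 reads added, 21 at a ratio of 1.5 and 5 with intervals that exclude 1. The 11 lower became 28, 3, 9, 23 and 6 in that order, and 7 with circBase numbers only. A lower minimum or ratio admits more circles by its construction. With circBase numbers only, OTUD7B was at 0.615 and USP13 at 0.211; USP45 was at 2.11 over circles listed in both libraries, and USP4 at 0.844 with rows that also name small RNAs. Depth limits the precision: the interval of OTUD3, with 21 reads, ran from 0.134 to 1.15.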
